A study of Citrus sinensis with 5 samples.

Results

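Among the genes of sweet orange (Citrus sinensis) leaves, 103 of the 28766 listed had much lower transcript levels in plants grown at pH 2.5 than in plants grown at pH 6. The members were chosen on the authors' normalized values with 10 added, called N here. A gene was kept where its lowest N among the pH 6 libraries was at least 2.5 times its higher N among the pH 2.5 libraries, and where its lowest pH 6 normalized value was at least 50. That minimum alone was met by 13295 genes, of which the members made up 0.775%. The values that chose the members are therefore described below without a test.

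Seedlings had been kept for 9 months at either pH 6 (control) or pH 2.5 (low pH). Leaf RNA was sequenced in 3 libraries of the former and 2 of the latter, and each library mixed equal amounts of leaf from 4 seedlings. The labels call the libraries biological replicates and give no genotype, no batch and no replicate number that ties a low pH library to a control library. Their extraction texts differ: those of control replicates 2 and 3 and low pH replicate 2 also mention roots, aluminium treatment and another citrus species, which conflicts with the leaf label, while those of control replicate 1 and low pH replicate 1 do not. By the rule, all 103 members were lower at low pH among the libraries of either text. With the wording of these texts as a block in edgeR, a fit chosen after the data were seen, 97 members were called lower, against 102 without it (calls are defined further on). Over all 16946 genes tested, 972 were called lower with the block and 1406 without it. Total counts ranged from 17224516 to 21505928 per library.

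Acid root medium is harmful to citrus and other crops because an excess of protons injures roots and disturbs the uptake of mineral nutrients and water. Where the acid is in the root medium, leaves do not meet it directly. A change in leaf transcripts after long treatment can then include effects of growth, nutrition and leaf development, none of which was measured here. The level of a transcript in a bulk sample is set by how fast it is made and lost and by how many cells hold it, and in these pooled leaves fewer cells of a type and less RNA per cell cannot be told apart.

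None of the identifiers could be given a gene name. Of the 28766 identifiers, 0 matched the RefSeq gene table for this species, whose assembly differs from the naming used here, and the files pair no identifier with a product. The members are therefore described by identifier, locus, level and agreement of libraries, with positions as the files list them. The genome build behind those positions was not named in the labels or headers. The leaf label could not be checked against marker genes for the same reason, and no biological role is given to any member.

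The members kept a median of 19.6% of their control level at low pH, with quartiles of 13.5% and 26.6%. By the mean of the normalized values of each treatment, 14 members kept under 10% of the control level, 40 kept 10% to 20%, 37 kept 20% to 30% and 12 kept 30% to 40%. The highest remaining level was 34.7%. The rule itself sets a ceiling near 28% of the lowest control value for a gene at the minimum of 50 and near 40% for an abundant gene, since the added 10 weighs more on low values. Beside that ceiling, the median remaining level was 14.6% in the 13 members with a lowest control value of 50 to 100, 19.6% in the 51 members at 100 to 1000, 22.9% in the 30 members in the next class, which began at 1000, and 30.9% in the 9 members of the highest class.

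**Figure D1:**
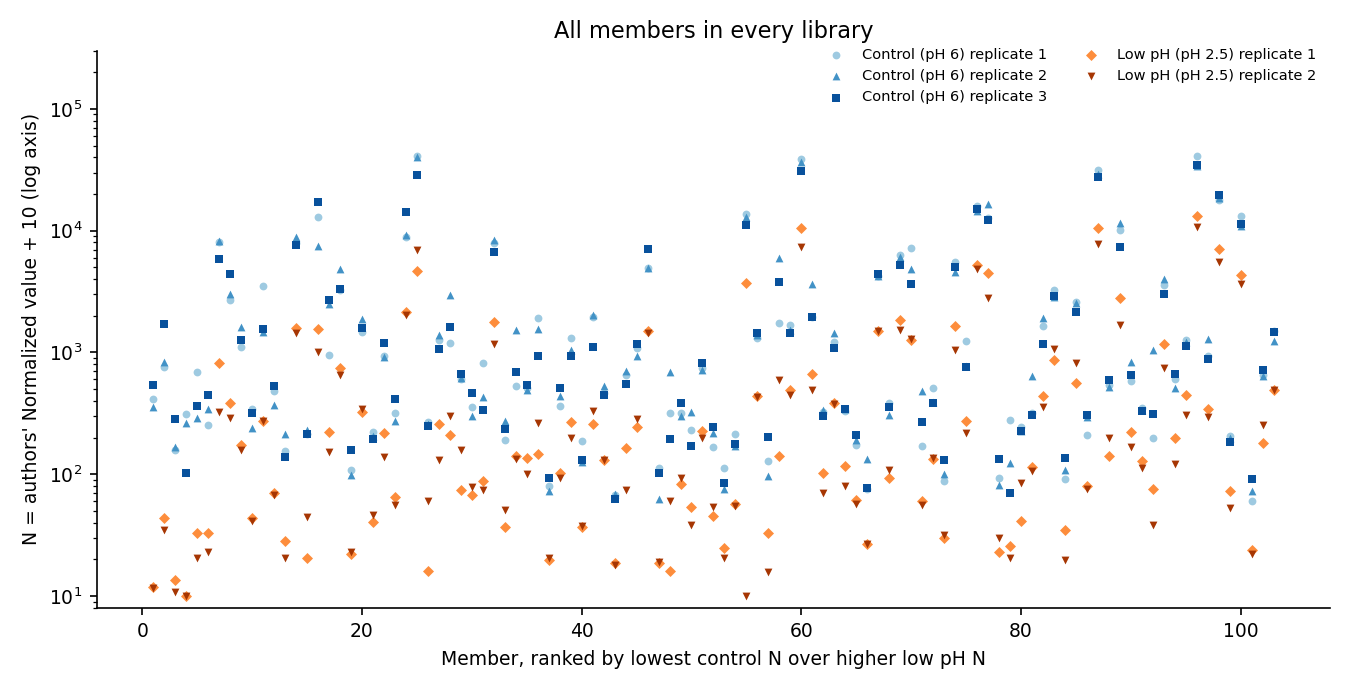
Each of the 103 members is placed on the horizontal axis by its ratio of lowest control N to higher low pH N, from 30.3 at the left to 2.51 at the right. The vertical log axis gives N, the authors' normalized value plus 10, in every library, with blue points for the 3 control libraries and orange or brown points for the 2 low pH libraries. In every member the control points lie above the low pH points, as the rule requires, and levels span a wide range at all ranks.

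Most members lay near the lower end of the rule. The ratio of lowest control N to higher low pH N was 2.5 to 3 in 49 members, 3 to 4 in 27, 4 to 5 in 15, 5 to 10 in 8 and 10 or more in 4, with a median of 3.08. As a share of all counts, the members together took 1.80%, 1.86% and 1.76% in control replicates 1, 2 and 3, and 0.540% and 0.446% in low pH replicates 1 and 2. The 6 members with the most control counts per library size made up 0.808% to 0.897% of all counts in the control libraries and 0.2496% to 0.288% at low pH.

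The largest ratio of the rule was that of Cs8g19470, a locus of 506 bases on chromosome 8 (minus strand, 21650630 to 21651135). Its normalized values were 404.5, 345.7 and 529.5 in control replicates 1, 2 and 3 and 1.75 and 1.61 in low pH replicates 1 and 2, so that 0.394% of the control level remained. Both low pH libraries held 2 counts, against 366, 310 and 471 in the controls. Scaled for depth, the control libraries held 257 times as many counts (exact 95% interval 99.9 to 943, counting error only). The control libraries of this gene differed from each other by 1.53 times at most, far less than the gap between treatments.

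The member next in ratio was Cs5g33540, on chromosome 5 (plus strand, 34553967 to 34555780). Its normalized values were 753, 819 and 1705 in the controls and 33.3 and 24.9 at low pH, which left 2.67% of the control level. Control replicate 3 stood 2.27 times above the lowest control library, and both low pH libraries lay close together. The unplaced locus orange1.1t01764, on the plus strand from 28033152 to 28034079, had normalized values of 149, 156 and 275 in the controls. In the low pH libraries it had 3.51 and 0.805, from 4 counts and 1 count, and the controls held 93.0 times as many counts after scaling for depth (exact 95% interval 39.6 to 288). Again control replicate 3 was the highest library.

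The locus orange_newGene_2145 carries the authors' label newGene and lies on an unplaced sequence, on the plus strand from 6396436 to 6400630. Its normalized values were 301, 252 and 92.6 in the controls and under 0.001 in both low pH libraries, although the count column lists 1 count in each. The deposited counts are estimates rounded up, so these single counts stand for an estimate near 0. A count of at least 1 with an estimate under 0.5 in a library was listed for 2 members. Over the 13295 genes that met the minimum it was listed for 4, these 2 included. Whether a failed estimate in the authors' processing gave the values of this locus was not tested. An upper limit of 3 counts in a library equals 0.139 CPM (counts scaled to library size with trimmed-mean factors). The control mean of this locus, 11.4 CPM, was 82.4-fold above that limit. This is no lower bound, since control replicate 3 alone stood at 5.0 CPM. With the counts as listed, the controls held 260 times as many after scaling for depth (exact interval 71.8 to 2155, counting error only). The control libraries themselves differed by 3.25 times, with control replicate 3 the lowest.

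Cs5g32580, on chromosome 5 (plus strand, 33821928 to 33822596), had normalized values of 675, 279 and 351 in the controls and 22.8 and 10.5 at low pH. It kept 3.82% of its control level, and control replicate 1 was the highest library. Cs8g19450, on chromosome 8 (minus strand, 21641473 to 21642369), had 242, 330 and 436 in the controls and 22.8 and 12.9 at low pH, with 5.31% remaining. In both genes low pH replicate 2 was below low pH replicate 1, and the treatments were far apart.

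Cs6g08360 combined strong repression with a high level. It lies on chromosome 6 (plus strand, 10345657 to 10346989), and its normalized values were 8084, 8252 and 5795 in the controls and 814 and 311 at low pH. It kept 11.03% of the control mean in low pH replicate 1 and 4.22% in replicate 2, a gap of 2.56 times between the low pH libraries on the N scale. Cs9g06720, on chromosome 9 (plus strand, 4173175 to 4178317), had 2662, 2998 and 4412 in the controls and 372 and 278 at low pH, with 9.67% remaining. These genes complete the 8 largest ratios, of which 5 have a gene model as long as the locus, that is, without introns.

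A further 4 members had a ratio of 5 or more and are named after their values were seen. The low pH libraries of each lay very close together. For orange1.1t02947 they stood at 164 and 149 against controls of 1101, 1609 and 1248. For Cs2g11140 they stood at 33.3 and 31.4 against 334, 228 and 307. For Cs6g06660 the low pH values were 265 in both libraries, while the controls were 3480, 1461 and 1563, so the spread lay on the control side. For Cs7g31410 the low pH values were 59.6 and 57.1 against controls of 471, 360 and 521. These 4 genes kept 11.2% to 13.0% of their control levels, a narrow band compared with the 8 genes above them.

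The 15 members with a ratio of 4 to 5 covered a wide span of levels, and the 12 of them described nowhere else are given here after their values were seen. Cs5g15640, on chromosome 5 (plus strand, 14106436 to 14109278) and without introns, had normalized values of 12876, 7409 and 17020 in the controls and 1560 and 990 at low pH, so its controls differed by 2.30 times and it kept 10.2% of their mean. Cs5g30230, on chromosome 5 (minus strand, 32158598 to 32160861), was far more even, with 7852, 8849 and 7637 in the controls and 1574 and 1441 at low pH. It kept 18.6%, and its level fell from 292 to 53.9 FPKM. Cs7g11940, on chromosome 7 and without introns, had nearly level controls of 205, 223 and 203 but low pH values of 10.5 and 34.8, with low pH replicate 1 the lower.

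Cs5g09640 on chromosome 5 kept the least of these 12, 9.06%, with controls of 145, 205 and 128 and low pH values of 18.4 and 10.5. Cs2g30480 on chromosome 2 kept the most, 19.6%, with controls of 1475, 1886 and 1575 and low pH values of 311 and 334. Cs1g20800 on chromosome 1 had controls of 8899, 9219 and 14184 and low pH values of 2129 and 2004, with control replicate 3 standing above the other libraries. The remaining 6, Cs9g01670, Cs6g13250, Cs9g16520, Cs6g15480, Cs7g08140 and Cs2g15520, kept 11.3% to 18.2%. In each of the 12 every control library lay above both low pH libraries, as chosen.

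The members with the most counts kept 15.8% to 33.5% of their control level, and the looser ceiling of the rule for abundant genes bears on this. The 6 described here were chosen by CPM in the controls, and levels of different genes are set side by side as FPKM, which divides by gene length, so that a shorter gene outside the 6, such as Cs6g08360 at 591 FPKM, can stand above some of them. Cs6g08320, on chromosome 6 (minus strand, 10287457 to 10291775), had the highest control level of all members, with 1180 ± 225 FPKM (SD, n = 3), and fell to 177 ± 44.8 FPKM (SD, n = 2). Its normalized values were 41388, 40362 and 28853 in the controls and 4675 and 6961 at low pH, so that control replicate 3 was the lowest control and low pH replicate 1 the lower of the low pH pair. It kept 15.8% of its control level, the lowest share among these 6.

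The unplaced locus orange1.1t03280 had 936 ± 105 FPKM (SD, n = 3) in the controls and 239 ± 57.0 FPKM (SD, n = 2) at low pH, with 25.3% of the normalized level remaining. Cs7g19240, on chromosome 7, had 859 ± 38.2 FPKM (SD, n = 3) and 296 ± 45.2 FPKM (SD, n = 2), which was the highest remaining level of any member. Cs2g15180, on chromosome 2, had 666 ± 66.1 FPKM (SD, n = 3) and 228 ± 30.7 FPKM (SD, n = 2). Of the normalized control level, 33.3% remained in Cs7g19240 and 33.0% in Cs2g15180.

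Cs5g09330, on chromosome 5, had 496 ± 28.7 FPKM (SD, n = 3) in the controls and 154 ± 30.6 FPKM (SD, n = 2) at low pH. Cs9g03300, on chromosome 9, had 285 ± 12.2 FPKM (SD, n = 3) and 93.2 ± 4.55 FPKM (SD, n = 2). Its libraries were among the most even of the abundant members, with normalized values of 15778, 14384 and 15085 in the controls and 5231 and 4869 at low pH. Cs2g15180 overlaps 1 other listed locus on its own strand, orange_newGene_318, whose control mean of 32.4 normalized is small beside the 36233 of the member. Among the other members of the highest class of control value, Cs2g30260 on chromosome 2 had 12603, 16463 and 12180 in the controls and 4495 and 2816 at low pH, and the unplaced orange1.1t01933 had 13191, 10993 and 11287 against 4333 and 3627. They kept 26.6% and 33.7%. Over all members the median control level was 27.4 FPKM, against 17.1 FPKM over the 13295 genes that met the minimum, and the median at low pH was 5.43 FPKM, against 17.5 FPKM.

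**Figure D2:**
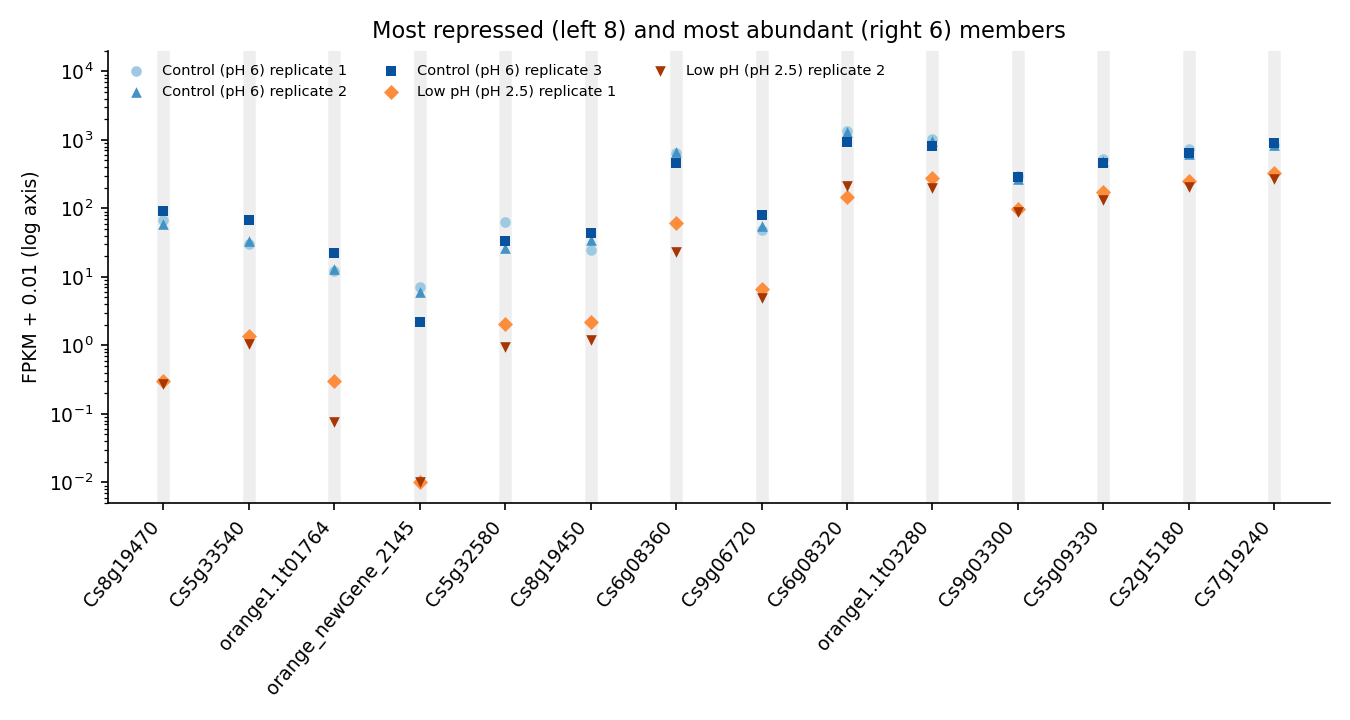
The vertical log axis gives FPKM plus 0.01 in each of the 5 libraries for the 8 members with the largest ratios, at the left, and the 6 members with the highest control CPM, at the right, with blue points for control and orange or brown points for low pH. The abundant members kept 15.8% to 33.5% of their control level, whereas the 8 at the left kept 9.67% or less.

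The low pH libraries were close to each other in most members, and low pH replicate 2 was more often the lower. The higher N was a median of 1.23 times the lower in the members, against 1.165 times over the 13295 genes that met the minimum. Low pH replicate 2 had the lower value in 70 members, or 68.0%, against 48.3% of those genes, and the same was seen in 66.5% of the 1304 genes outside the set that were called lower by edgeR. The median remaining level was 20.9% in low pH replicate 1 and 19.2% in replicate 2. In 10 members, or 9.71%, the low pH libraries were over 2 times apart on the N scale, against 4.32% of the genes that met the minimum.

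The widest gap between the low pH libraries was in Cs3g20040, a locus without introns on chromosome 3 (minus strand, 23131655 to 23134323). Its normalized values were 13813, 13029 and 11164 in the controls and 3735 in low pH replicate 1, but 0.0206 in low pH replicate 2, where the count column lists 1. It kept 29.5% of the control mean in replicate 1, so its place in the set rests on that library alone. It was the 1 gene of the 28766 listed under 1 normalized in low pH replicate 2 and at 1000 or more in every other library, and no gene was under 1 in another library with the same contrast. Whether a failed estimate in the authors' processing gave this value was not tested. Without this gene the members took 0.519% of all counts in low pH replicate 1 and 1.70% to 1.79% in the controls.

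Further members with wide gaps at low pH were Cs9g07670, Cs9g19070 and Cs2g07550. Cs9g07670, on chromosome 9 (minus strand, 4780623 to 4781599), had 132 and 582 at low pH and 1735, 5901 and 3792 in the controls, so it was uneven within both treatments. Cs9g19070, on chromosome 9 (minus strand, 18136219 to 18137855), had 6.14 and 49.9 at low pH, while its controls of 256, 248 and 237 were nearly level. Cs2g07550, on chromosome 2 (minus strand, 4520214 to 4526006), had the same pair of low pH values, 6.14 and 49.9, and controls of 306, 681 and 186. In all 3 of these genes low pH replicate 1 was the lower library, unlike most members.

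**Figure D3:**
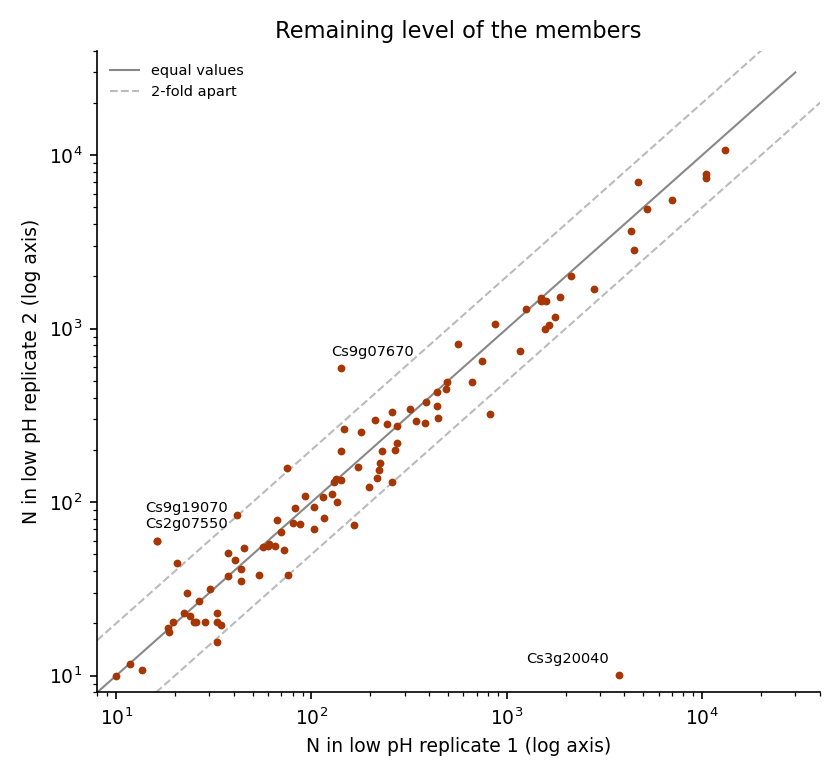
N, the authors' normalized value plus 10, of each of the 103 members is shown in low pH replicate 1 (horizontal log axis) and replicate 2 (vertical log axis), with a solid line of equal values and dashed lines 2-fold apart. Most points lie between the dashed lines, 10 lie outside them, and Cs3g20040 stands far below them.

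The control libraries of the members were more uneven than those of all genes that met the minimum. They were less uneven than those of the 56 genes that met the same rule in the other direction, but at unlike levels. Those 56 genes had no minimum on their control values, and their median control level was 3.44 FPKM, against 27.4 FPKM in the members. The highest control value was a median of 1.43 times the lowest in the members, against 1.23 times over the genes that met the minimum and 1.70 times in the 56 genes. The gap was over 2 times in 17 members, or 16.5%, against 5.21% and 42.9%, and these differences were not tested. No single control library was the highest in most members. Control replicate 1 was the highest in 35 members, control replicate 2 in 32 and control replicate 3 in 36, or 34.0%, 31.1% and 35.0%. Over the genes that met the minimum the shares were 42.4%, 30.4% and 27.1%.

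The largest control spread was in Cs7g13360, a locus without introns on chromosome 7 (minus strand, 9258530 to 9260417). Its controls were 187, 1033 and 300, a range of 5.53 times, and its low pH libraries were 65.8 and 28.2. Cs1g17420, on chromosome 1 (plus strand, 20628685 to 20631566), had controls of 270, 114 and 59.6 and low pH values of 15.8 and 10.5. The mean of such a gene depends on 1 control library, replicate 2 in Cs7g13360 and replicate 1 in Cs1g17420. At the other end, Cs8g03010 on chromosome 8 had controls of 4267, 4270 and 4383 and low pH values of 1480 and 1498, and it is named here after its values were seen.

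Just inside the ratio, Cs2g15070 had a ratio of 2.51, with controls of 1488, 1223 and 1452 and low pH values of 481 in both libraries. Cs2g18560 and Cs6g07500 had ratios of 2.53 each. Just outside, orange1.1t01459 had a ratio of 2.49, with controls of 1201, 1179 and 1339 and low pH values of 347 and 468. Cs9g15470 and Cs2g09545 followed with ratios of 2.48 each.

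The minimum of 50 separated few genes. Just inside it, Cs6g07500 had a lowest control value of 50.8, Cs3g09430 of 52.1 and orange_newGene_2268 of 52.6. Just outside, Cs3g09630 had 49.0, while Cs1g13620 and Cs6g04940 had 42.0 each. In all, 7 genes met the ratio and not the minimum. The members inside these limits kept 20.04%, 10.5% and 14.6% of their control levels, and the 3 genes outside kept 19.1%, 19.8% and 11.1%.

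Across all genes, edgeR's quasi-likelihood test on the counts, with a Benjamini-Hochberg adjusted p under 0.05, called 1406 of 16946 genes lower at low pH, or 8.30%. All 103 members were tested, and 102 were among the lower genes, which follows from how they were chosen and is given as a description only. The median log2 fold change of the members was -2.36, and single values ran from -7.90 to -1.54. The member outside the called genes was Cs3g20040, with a log2 fold change of -2.77 and an SE of 1.82. DESeq2 called 12.8% of 17403 genes lower and included 102 members. The number of members called depended on the libraries used. It was 39 without control replicate 3, where 49 genes in all were called lower, and 77 without control replicate 2, where 195 were. It was 98 without control replicate 1, where 609 were. Without low pH replicate 1 the median log2 fold change of the members was -2.40, and without low pH replicate 2 it was -2.26. In the fits without a low pH library the spread came from the control libraries alone, so the single low pH library was assumed to vary as they do.

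The members lay on every chromosome. There were 17 on chromosome 2, 15 on chromosome 5, 12 on chromosome 7 and 11 on chromosome 3, with 5 to 8 on each of the others and 17 on unplaced sequences. Per 100 genes that met the minimum this came to 1.14 on chromosome 2, the highest, and 0.392 on chromosome 1, the lowest, and the differences were not tested. Members lay on the plus strand in 58 cases. No member's locus overlapped that of another member.

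Only 4 members lay within 20 kb of another. Cs5g11720 and Cs5g11730 were adjacent in the list on the plus strand of chromosome 5, 19176 bases apart, from 8785545 to 8790937 and from 8810114 to 8814595. Cs5g11720 had controls of 2585, 2540 and 2147 and low pH values of 555 and 805. Cs5g11730 had controls of 952, 2480 and 2687 and low pH values of 211 and 143. The pair thus differed in depth, with 28.0% and 8.67% of the control level remaining, and control replicate 1 was the highest library in the first and the lowest in the second. The genes on either side, Cs5g11710 and Cs5g11740, did not pass edgeR's threshold and had log2 fold changes of 0.54 (SE 0.35) and 0.23 (SE 0.11).

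Cs8g19450 and Cs8g19470, described above, were 8260 bases apart on the minus strand of chromosome 8, with 1 listed gene between them. That gene, Cs8g19460, was far more abundant, with normalized values of 5875, 4712 and 6065 in the controls and 2500 and 2687 at low pH. It is no member, but it was lower as well, by -1.11 on the log2 scale (SE 0.16, adjusted p = 0.0168 in edgeR). The next gene, Cs8g19480 on the plus strand, had controls of 47.5, 62.5 and 63.0 and low pH values of 23.7 and 14.5, a log2 difference of -1.61 (SE 0.39, adjusted p = 0.0426 in edgeR). These 4 consecutive loci, from 21641473 to 21654832, were thus all lower at low pH with all 5 libraries, and the flanking genes are named after their values were seen. Leaving out a control library did not end the calls of the members Cs8g19450 and Cs8g19470, but the calls of the flanking genes were less stable. Cs8g19480 did not pass without any 1 of the 5 libraries or with the extraction text as a block, with edgeR adjusted p of 0.0584 to 0.158. Cs8g19460 did not pass without control replicate 3 or without low pH replicate 2, with edgeR adjusted p of 0.0614 and 0.0672.

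Beyond the 4 loci the direction was mixed. Cs8g19490 and Cs8g19500 did not pass the threshold, and Cs8g19520 was lower, with controls of 64.1, 80.3 and 43.8 and low pH values of 14.03 and 8.05 (log2 difference -2.51, SE 0.47, adjusted p = 0.0237 in edgeR). On the other side Cs8g19430 was level, with a log2 fold change of -0.04 (SE 0.12), and Cs8g19400 was higher at low pH, by 0.96 on the log2 scale (SE 0.20, adjusted p = 0.0303 in edgeR). Cs8g19520 did not pass without any 1 control library or without low pH replicate 2, with edgeR adjusted p of 0.0566 to 0.0992. Cs8g19400 did not pass without control replicate 2, control replicate 3 or low pH replicate 2, or with the block, with edgeR adjusted p of 0.0576 to 0.127. Whether the loci of this stretch resemble each other in sequence, so that reads could be shared between them, was not tested.

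**Figure D4:**
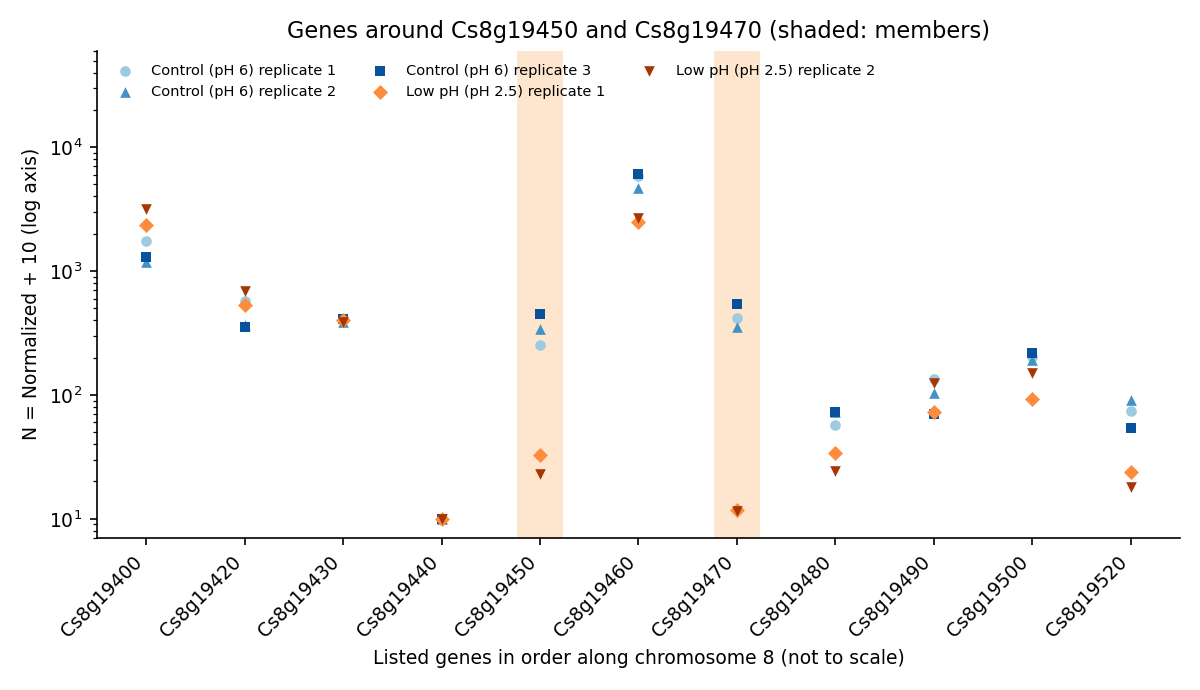
Listed genes within 20 kb of the pair Cs8g19450 and Cs8g19470 are shown in order along chromosome 8, with N, the authors' normalized value plus 10, on a log axis in the 3 control libraries (blue) and the 2 low pH libraries (orange and brown). From Cs8g19450 to Cs8g19480 every low pH point lies below every control point, and Cs8g19400, at the left end, shows the reverse order.

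Cs5g32580 also had a lower neighbour. Cs5g32590, 4145 bases away on the same strand, had normalized values of 40.9, 37.9 and 31.5 in the controls and 0 and 4.83 at low pH, a log2 difference of -3.84 (SE 0.90, adjusted p = 0.0393 in edgeR), and it was below the minimum of the rule. It did not pass without any 1 control library or with the block, with edgeR adjusted p of 0.0691 to 0.0947. The gene on the other side, Cs5g32570, had a log2 fold change of 0.30 (SE 0.11) and did not pass. Over all members there were 203 flanking genes outside the set, of which 146 were tested. Of these 16 were lower, or 10.96%, against 8.30% of all genes tested. Higher genes numbered 7, or 4.795%, against 7.13%, and 123 did not pass. The median log2 fold change was -0.11 against 0.02, and these differences were not tested.

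On chromosome 6, Cs6g08320 and Cs6g08360, the member with the highest level and 1 of the 8 with the largest ratios, were 53881 bases apart on opposite strands. Of the 3 listed genes between them, 2 had no reads in any library. The third, Cs6g08350, had 140, 781 and 460 in the controls and 417 and 78.9 at low pH, so that its treatments overlapped.

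The loci of 18 members, or 17.5%, overlapped another listed locus, against 19.8% of the genes that met the minimum. In 14 of them the overlap was with the opposite strand only, where reads can be told apart if strand was used in counting, and no label or header says whether it was. In the other 4, Cs3g09430, Cs3g05760, orange1.1t01426 and Cs2g15180, it was on the same strand, where strand does not separate the reads. The levels of Cs3g05760 and orange1.1t01426 are uncertain, since the same-strand locus had the higher control mean (727 against 339 and 967 against 418 normalized). Beside Cs2g15180 and Cs3g09430 it had the far lower one (32.4 against 36233 and 0 against 82.9). In all, 9 of the 20 overlapping loci had a control mean above that of the member. Some were on the opposite strand, as beside Cs2g11140 (2854 against 289), whose level is uncertain if strand was not used. Of the 20 loci that overlap the 18 members, 2 were lower, 2 higher, 14 did not pass and 2 were not tested. Over all genes tested, 8.30% were lower and 7.13% higher. A locus described after its values were seen is orange_newGene_383, on chromosome 2 (minus strand, 18276278 to 18278490). Its values were 643, 691 and 540 in the controls and 156 and 64.3 at low pH. The locus orange_newGene_330 on the plus strand covers the same stretch, from 18276271 to 18278825, and rose from a mean of 103 in the controls to 421 at low pH, with a log2 fold change of 2.02. It no longer passed without control replicate 2, control replicate 3 or low pH replicate 2, with edgeR adjusted p of 0.0540 to 0.0739. The levels listed for the opposite strands of this stretch therefore moved in opposite directions.

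A gene model as long as its locus was found in 21 members, or 20.4% (exact 95% interval 13.1 to 29.5), against 7.78% of the 13295 genes that met the minimum, 10.9% of the 16946 genes tested and 20.8% of all 28766 listed. The 21 loci included Cs8g19470, orange1.1t01764, Cs5g32580, Cs8g19450, Cs6g08360, Cs3g20040 and Cs7g13360, and they kept a median of 16.7% of the control level, against 19.8% in members with introns. The share was not tested. It was 17.9% in the 56 genes that met the same rule in the other direction, 24.4% in the 675 genes outside the set whose control libraries were over 2 times apart, and 9.36% in the 1304 other genes called lower by edgeR.

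**Figure D5:**
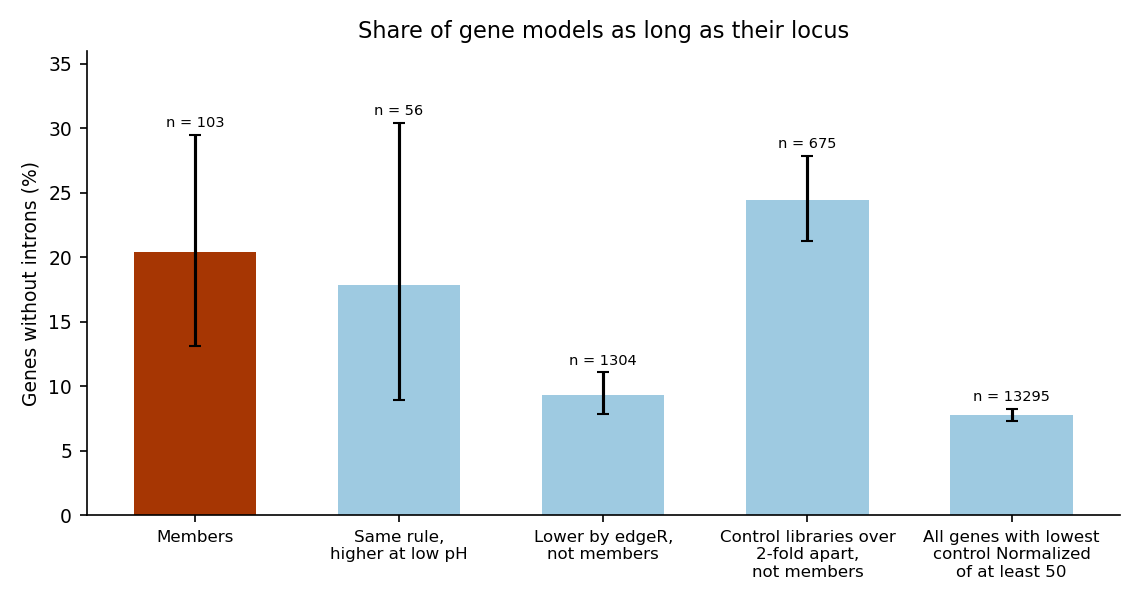
Bars give the percentage of gene models as long as their locus, that is, without introns, in 5 sets of genes, with exact 95% binomial intervals and the number of genes above each bar. The members stand at 20.4%, close to genes that met the rule in the other direction at 17.9% and to genes with uneven control libraries at 24.4%, and above the 7.78% of all genes that met the minimum. The share over all 28766 listed genes, 20.8%, is not drawn.

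In the length of model and locus the members differed less from the genes that met the minimum. Their median model length was 1988 bases, against 2214 bases over the genes that met the minimum, and their median locus length was 3582 bases, against 4192 bases. Loci with the label newGene numbered 4, or 3.88% (exact 95% interval 1.07 to 9.65), against 1.504%. These were orange_newGene_2145, orange_newGene_2268, orange_newGene_383 and orange_newGene_1340. The last of them, on chromosome 6 (minus strand, 4463099 to 4466747), had controls of 219, 317 and 161 and low pH values of 43.9 and 28.2.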

How the data were processed

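Leaf RNA of 5 libraries was measured. Per the labels' protocols, 3 µg of RNA went into a NEBNext Ultra kit for control replicate 1 and low pH replicate 1; for the other libraries no kit for library construction is named. TopHat2, Cufflinks and DESeq appear, with neither version nor role, in the submitters' processing notes. The authors deposited, per the file headers, a count, an FPKM value and a normalized signal per gene. The normalized signal divided by 1 factor per library (0.877 and 0.805 at low pH, 1.10 to 1.12 in controls) gave estimated counts, and every deposited count under 2000 equalled that estimate (within 0.05) or the estimate rounded up, the latter in 34.1% to 36.2% of genes. Counts were used as deposited.

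The members and lists were chosen with earlier results of these data known. Counts were compared by edgeR 4.0.16 (R 4.3.3) with trimmed-mean factors, filterByExpr, the quasi-likelihood test, 2-sided, and Benjamini-Hochberg adjustment over 16946 genes. DESeq2 1.42.0 was an alternative. An SE is the size of the fold change over the root of its F. Fold changes are low pH minus control. As a check of the code, the fits were run on counts simulated from the edgeR fit itself. Rounded-up estimates were not simulated, so this does not show how well the fits suit these data. Intervals are exact 95% binomial intervals. P-values set the difference between treatments against the spread between these libraries, each a pool of 4 seedlings. By rule, the members described were the 8 largest ratios, the 6 highest control levels, the 4 highest low pH levels, the 4 widest spreads within each treatment, 3 genes on each side of each limit and members within 20 kb of each other. Others described were picked after their values were seen. No sequences were at hand.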

Additional observations from a re-analysis of the deposited data

How the results depend on the processing

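The number of members was 106 with trimmed-mean CPM, 81 with FPKM plus 1, 121 with an offset of 1, 110 with a minimum of 20 and 90 with a minimum of 100, against 103. It was 44 with raw counts, 224 with a ratio of 2 and 27 with a ratio of 4. Without 1 library it was 121 to 300, and can only grow, since the rule takes the extremes of each treatment. Genes past the threshold in either direction numbered 2615, against 4036 with DESeq2, 20 at an adjusted p under 0.01 and 74 to 2029 without 1 library. Of the members, 102 were lower in the fits with all libraries, no block and a threshold of 0.05, and 39 to 98 without 1 control library. At an adjusted p under 0.01 in edgeR, 11 members were lower, among 11 genes lower in all. Models without introns made up 29.6% of members at a ratio of 4. Overlap on the same strand alone was found in 3.88% of members. The median control spread was 1.18 to 1.28 times with 1 control left out, as fewer libraries are compared. With library totals alone, the median log2 change was 0.23 over all tested genes and -2.15 over the members. The authors' factors and rounding of estimates to the nearest whole number were chosen after seeing the data. All 103 members were lower in direction in each of these fits, which follows from their choice. Of the neighbours and overlapping loci given with a test, none reversed. With the extraction text as a block, also chosen after seeing the data, 1621 genes passed, of which 972 were lower. Among the lower genes were 97 members. Of the genes described by rule, the members Cs2g07550, Cs7g13360 and Cs9g19070 and the non-member Cs9g15470 lost their calls. No paired analysis was possible because the labels give no replicate numbers shared by the treatments; the block above pairs wordings, not replicates. Low pH values of few counts limit the deepest folds.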
